A study of Homo sapiens with 6 samples.

Results

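The genes described here encode the enzymes that attach the fatty acid palmitate to cysteines of human proteins and those that take it off again, measured in SK-BR-3 breast cancer cells with and without an siRNA against the adaptor gene GRB2. The members were the rows of the count table typed as protein coding whose symbol starts with ZDHHC and a digit, or is ABHD17A, ABHD17B, ABHD17C, LYPLA1, LYPLA2, LYPLAL1, ABHD10, PPT1, PPT2, GOLGA7 or GOLGA7B. This rule found 33 of 30327 genes, and 29 of them were among the 15801 genes with enough reads to be tested. SK-BR-3 is a line from a human breast cancer with high HER2. The 6 poly(A) RNA libraries are 3 that received a control siRNA without a human target (si_NC) and 3 that received the GRB2 siRNA (si_GRB2), and no other genotype, drug or time point was used. The labels disagree on the treated group, since their descriptions read si_GRB2 while titles and genotype name an overexpression of GRB2, so the transcript of GRB2 itself is given in every library below. Nothing in the labels says that libraries of a group came from separate cultures, so p-values measure only the spread between these libraries, which may be technical.

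S-palmitoylation joins palmitate to a cysteine through a thioester bond and holds proteins such as RAS, G protein alpha subunits and many receptors at membranes. It is written by palmitoyltransferases of the ZDHHC family, membrane enzymes of the Golgi, endoplasmic reticulum and plasma membrane named after an Asp-His-His-Cys stretch whose cysteine carries the acyl group during the reaction. Unlike most lipid anchors it can be removed. In the cytosol this is done by the acyl-protein thioesterases LYPLA1 (APT1) and LYPLA2 (APT2) and by the ABHD17 proteins. In mitochondria it is done by ABHD10 and in lysosomes, during protein breakdown, by PPT1. PPT2, the lysosomal relative of PPT1, is counted among the members too.

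The Asp-His-His-Cys codons are what the ZDHHC members share beyond their names. In the canonical coding sequences of GENCODE 44 on GRCh38, 1 such run was found in frame in 21 of the 22 ZDHHC genes and in none of the other 11 members, and 32 of 20457 coding genes in all held one. The remaining gene, ZDHHC13, has Asp-Gln-His-Cys codons in its place. The 30 coding bases around these codons are shown, 5′ to 3′, for ZDHHC5, ZDHHC6 and ZDHHC16, on which the results turn, and for ZDHHC13, with the 12 bases of the 4 codons in capitals.
ZDHHC5: gaggaatttGATCATCACTGCccctgggtg
ZDHHC6: atgaagatgGACCATCACTGTccttggatc
ZDHHC16: ctgaagatgGATCACCACTGCccctggcta
ZDHHC13: gctcgatatGATCAACACTGCctgtggact
The ZDHHC5 bases lie on the plus strand at chr11:57688663-57690057, split by an intron between exons 4 and 5 of 12, and begin the motif at codon 131. The ZDHHC6 bases lie within exon 4 of 11 on the minus strand at chr10:112442315-112442344, with the motif from codon 126. Those of ZDHHC16 lie on the plus strand at chr10:97452902-97453537, across exons 6 and 7 of 12, with the motif from codon 182. Those of ZDHHC13 lie in exon 13 of 17 on the plus strand at chr11:19165103-19165132, with Asp-Gln-His-Cys from codon 453.

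A second set of sequences belongs to the siRNA. The bases of a transcript that pair with guide positions 2 to 8 of the siRNA named in the study's methods are ACAGATC. This 7-base match was searched on the transcript strand of canonical transcripts, and it is shown in capitals within 19 bases, first in the coding sequence of GRB2, where the siRNA is directed, and then in the 3′ UTRs of ZDHHC12 and GOLGA7B, called members that hold it. LYPLA1 is a called member with a match too, and its bases are not printed here.
GRB2: ggtggattatcACAGATCt
ZDHHC12: cttcaagtcagACAGATCc
GOLGA7B, first: gccacacagagACAGATCt
GOLGA7B, last: caaggaagaagACAGATCc
The GRB2 bases are in exon 5 of 6 on the minus strand at chr17:75321716-75321734. The ZDHHC12 bases are on the minus strand at chr9:128721037-128721055, and those of GOLGA7B on the plus strand at chr10:97865951-97865969 and chr10:97869071-97869089.

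The libraries held between 24810378 and 28532480 reads assigned to genes, and log2 CPM, the reads of a gene scaled to the size of its library, correlated across genes at r = 0.992 to 0.995 within groups and 0.988 to 0.992 between them. GRB2 stood at 124, 129.5 and 126 CPM in the si_NC libraries and at 27.8, 28.1 and 29.6 CPM in the si_GRB2 libraries. The groups did not overlap and the log2 fold change was −2.15 (SE 0.04, adjusted p = 3.87e-15, edgeR's quasi-likelihood test), so the treated libraries follow si_GRB2 and not the label of overexpression. Of 8 luminal breast epithelial markers 7 were tested, of which 1 was higher and 6 lower, among them the keratins KRT18 (log2 fold change −0.55, adjusted p = 3.72e-11) and KRT8 (−0.41, adjusted p = 1.76e-10). HER2 itself, ERBB2, averaged 3499 CPM in si_NC and 4140 CPM in si_GRB2, while CDH1 was near 0 (0.0606 and 0.0518 CPM). Of 8 markers of other cell types 3 were tested and only ACTA2 changed (1.72 to 0.69 CPM, log2 fold change −1.31, adjusted p = 0.00192), the highest was COL1A1 at 4.50 and 4.57 CPM, and PTPRC, PECAM1, DCN, CD3E and COL1A2 averaged under 0.2 CPM. Their part in the results on palmitoylation genes was not tested, and in bulk RNA fewer cells of a kind and less RNA per cell cannot be told apart.

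Across the palmitoylation genes the response ran in both directions. After GRB2 knockdown 13 of the 29 tested members passed an adjusted p of 0.05, 9 higher and 4 lower, while 16 did not pass. This is 44.8% of the members, against a background of 30.6% of all tested genes (15.2% higher and 15.5% lower). With a fold of 1.5 and an adjusted p of 0.01, the fold limit of the study with an adjusted p where its methods name a p value in DESeq2, the members were LYPLA1 and ZDHHC5 on the lower side and ZDHHC16 and GOLGA7B on the higher side, 4 of 29 against 2.52% of all tested genes (0.829% higher, 1.69% lower). Both counts include LYPLA1, which was singled out with its fall already known. Among the 28 tested members without LYPLA1, 9 were higher and 3 lower at an adjusted p of 0.05 (42.9%). Past the fold limit, 2 of these were higher and 1 lower. CPM did not overlap between groups for 16 of the 29 members, and for 42.3% of all tested genes. The median log2 fold change was 0.03 for the members and 0.00 for all genes, the median size of change 0.15 and 0.14, and the members ran from −0.77 to 0.69 with 18 of 29 above 0.

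**Figure D1:**
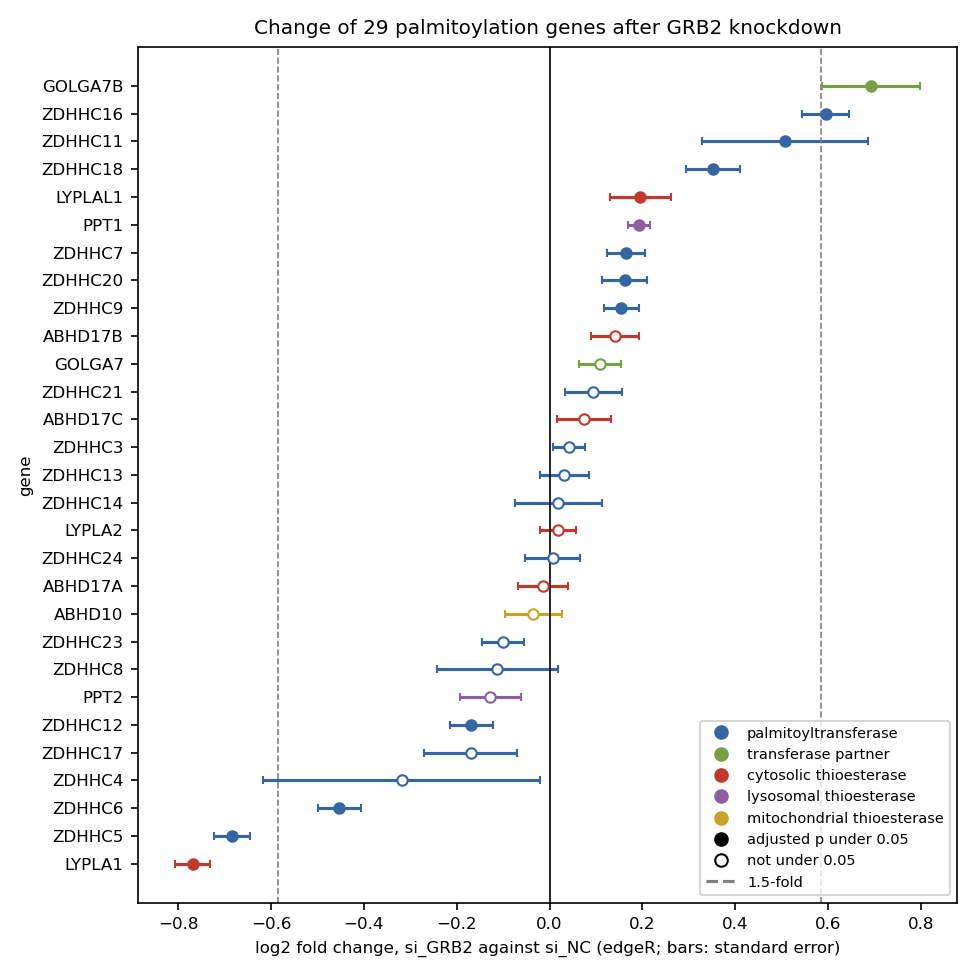
Log2 fold change of each tested palmitoylation gene (rows) in si_GRB2 against si_NC from edgeR, with bars of 1 standard error; filled points passed an adjusted p of 0.05, colours give the class, and dashed lines mark 1.5-fold. LYPLA1 (−0.77) and ZDHHC5 (−0.68) lie beyond the lower line, ZDHHC16 (0.59) and GOLGA7B (0.69) beyond the upper one, and most other genes lie near 0.

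In the deposited FPKM, which divides reads by a gene length, the lysosomal thioesterase PPT1 had the highest level by far, with a mean of 262 over the 6 libraries. The lengths used are not given in the sources used here, and the order of genes in FPKM depends on them. LYPLA2 followed at 26.8 FPKM and ZDHHC5 at 15.7 FPKM. Further down, the order depended on the group. In si_NC, ZDHHC5 (19.2 FPKM) and LYPLA1 (19.1 FPKM) overlapped and were above GOLGA7 (13.8 FPKM), whereas in si_GRB2 GOLGA7 (15.4 FPKM), ZDHHC9 (14.1 FPKM) and ZDHHC7 (13.98 FPKM) were above ZDHHC5 (12.3 FPKM) and LYPLA1 (11.6 FPKM). In FPKM LYPLA2 was ahead of them all in both groups, at 26.2 FPKM in si_NC and 27.4 in si_GRB2. In CPM LYPLA1 (112) was above LYPLA2 (66.0) in si_NC, so their order in FPKM depends on the gene lengths used. At the other end, 4 members had too few reads to be tested. ZDHHC1 had 5 reads over all libraries, ZDHHC2 had 2, ZDHHC11B had 9 and ZDHHC19 had 9. Their response was not detectable at this depth.

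**Figure D2:**
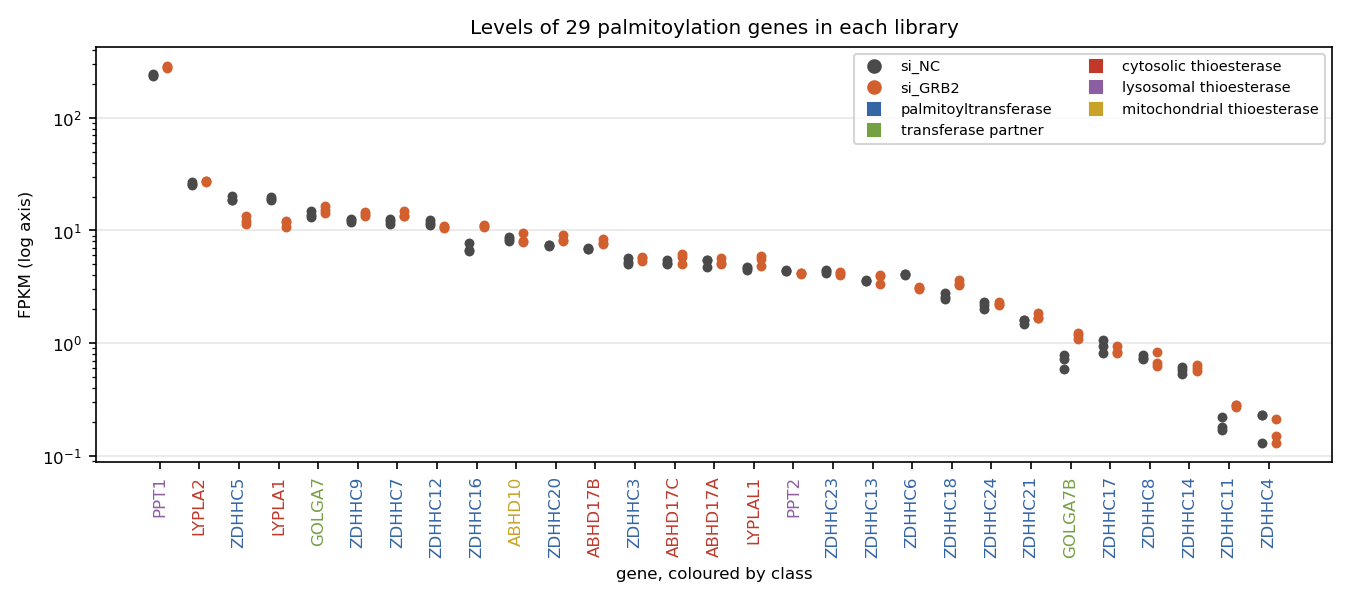
FPKM on a log axis for the 29 tested palmitoylation genes, 1 point per library, ordered by mean level, with grey points for si_NC, orange points for si_GRB2 and names coloured by class. PPT1 (mean 262) stands about an order of magnitude above LYPLA2 (26.8), and the groups separate most clearly for ZDHHC5, LYPLA1, ZDHHC16, ZDHHC6 and GOLGA7B.

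Among the cytosolic erasers, LYPLA1 (ENSG00000120992, GRCh38 chr8:54046367-54102017, minus strand) fell, and its paralogue LYPLA2 did not. LYPLA1 was at 113, 111 and 110.5 CPM in si_NC and at 62.8, 65.5 and 68.2 CPM in si_GRB2. Every treated library was far below every control library. The means were 112 ± 1.27 and 65.5 ± 2.72 CPM (SD, n = 3 each), a fold of 0.587 or −41.3%, with a log2 fold change of −0.77 (SE 0.04) and an adjusted p of 3.4e-10 in edgeR's quasi-likelihood test. It was the lowest fold change among the 29 members, and 1.48% of all tested genes lay at or below it. LYPLA1 was singled out with its fall already known, so this rank is a description. Only 1 read over all libraries fell on its listed pseudogene LYPLA1P3. The counts are of uniquely mapped reads, so reads that fit both equally would not be seen, and their number was not tested.

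LYPLA2 was at 66.1, 66.3 and 65.7 CPM in si_NC and at 69.6, 64.5 and 66.7 CPM in si_GRB2. The treated libraries lay on both sides of the controls. The log2 fold change was 0.02 (SE 0.04, adjusted p = 0.775), and without the first si_GRB2 library it was −0.01. The log2 ratio of LYPLA1 to LYPLA2 in CPM was 0.76 ± 0.01 in si_NC and −0.03 ± 0.10 in si_GRB2 (SD, n = 3 each), a difference of −0.79. The 3 treated ratios lay below the 3 control ratios, which in a two-sided exact permutation test gave p = 0.1, the smallest p that 3 against 3 libraries allow, and 0.133 adjusted over 4 gene pairs. In FPKM the ratio of LYPLA1 to LYPLA2 was 0.736, 0.723 and 0.724 in si_NC and 0.388, 0.438 and 0.441 in si_GRB2.

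The other cytosolic thioesterases moved little. LYPLAL1, a relative of LYPLA1 and LYPLA2, was at 16.9, 17.5 and 16.5 CPM in si_NC and at 17.8, 19.6 and 20.9 CPM in si_GRB2. The groups did not overlap, though the lowest treated library was close to the highest control, and LYPLAL1 rose by a log2 fold change of 0.20 (SE 0.07, adjusted p = 0.0333). That call was lost in 8 of 13 alternative fits, including DESeq2 (adjusted p = 0.096) and every fit that left out 1 library except the one without the first si_GRB2 library. The ABHD17 enzymes, which depalmitoylate NRAS among other substrates, did not pass. ABHD17B had a log2 fold change of 0.14 (adjusted p = 0.0506) with groups that did not overlap, ABHD17C 0.07 (adjusted p = 0.378) and ABHD17A −0.01 (adjusted p = 0.886). Within the class 1 member was thus higher, 1 lower and 4 not called.

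PPT1, the palmitoyl-protein thioesterase of lysosomes whose loss causes infantile neuronal ceroid lipofuscinosis, rose slightly and with little spread. It was at 1027, 1018 and 988 CPM in si_NC and at 1165, 1135 and 1168 CPM in si_GRB2. All treated libraries were above all controls, with a log2 fold change of 0.19 (SE 0.02, adjusted p = 1.06e-05). Its lysosomal relative PPT2 had a log2 fold change of −0.13 (adjusted p = 0.164), and mitochondrial ABHD10 −0.04 (adjusted p = 0.727). PPT2 has a partner row, the read-through PPT2-EGFL8, with 22.7% as many reads, so its count is uncertain to that extent.

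Of the 22 ZDHHC palmitoyltransferases 18 were tested, of which 6 rose, 3 fell and 9 did not pass, with a median log2 fold change of 0.03. ZDHHC5 (ENSG00000156599, chr11:57667747-57701182, plus strand), a plasma membrane transferase with the highest FPKM of the family in si_NC, fell most. It was at 129.7, 127 and 131 CPM in si_NC and at 77.1, 85.4 and 79.1 CPM in si_GRB2. The groups were well apart. The means were 129 ± 2.10 and 80.5 ± 4.37 CPM (SD, n = 3 each), a fold of 0.623 or −37.7%, with a log2 fold change of −0.68 (SE 0.04, adjusted p = 2.13e-09), and 2.25% of all tested genes lay at or below it. Whether LYPLA1 and ZDHHC5 differ from each other in their fall was not tested.

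ZDHHC6 and ZDHHC16 form a pair with opposite responses. ZDHHC6 is a transferase of the endoplasmic reticulum that is itself palmitoylated by ZDHHC16 and stripped by LYPLA2. ZDHHC6 was at 48.1, 48.3 and 45.1 CPM in si_NC and at 35.6, 33.1 and 34.7 CPM in si_GRB2, and ZDHHC16 was at 25.8, 25.6 and 28.2 CPM in si_NC and at 41.1, 38.9 and 40.5 CPM in si_GRB2. Neither gene overlapped between groups. In the deposited FPKM ZDHHC16 was ahead of ZDHHC6 in every library. The FPKM ratio was 1.63, 1.62 and 1.91 in si_NC and 3.51, 3.58 and 3.56 in si_GRB2. In CPM, by contrast, ZDHHC6 was ahead in every si_NC library. The canonical transcripts are similar in length, with 2170 bases for ZDHHC6 and 1977 for ZDHHC16. The FPKM order in si_NC thus rests on gene lengths that are not given in the sources used here. The log2 fold change was −0.45 for ZDHHC6 (SE 0.05, adjusted p = 1.66e-06) and 0.59 for ZDHHC16 (SE 0.05, adjusted p = 1.98e-07), a 1.51-fold rise that sits at the edge of the fold limit. ZDHHC16 was past both limits in 9 of 13 alternative fits. It fell short of 1.5-fold without the first si_NC library (0.57), without the si_NC library numbered 2 (0.56), without the first si_GRB2 library (0.58) and in limma on log2(FPKM + 1) (0.57), with its adjusted p under 0.05 in each. The log2 ratio of ZDHHC16 to ZDHHC6 in CPM went from −0.83 ± 0.13 to 0.22 ± 0.01 (SD, n = 3 each), a difference of 1.05 with the smallest exact permutation p that the design allows, 0.1, and this pair and those named next were chosen after the values were seen. ZDHHC6 overlaps ACSL5 and VTI1A on the opposite strand, whose reads were 79.0% and 33.7% of its own and whose log2 fold changes were 0.01 (adjusted p = 0.92) and −0.08 (adjusted p = 0.46). The library kit kept the strand, but the strand setting of the counting is not given in the sources used here.

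GOLGA7 and GOLGA7B are proteins that bind transferases as partners. GOLGA7 works with ZDHHC9 on HRAS and NRAS at the Golgi, and GOLGA7B holds ZDHHC5 at the plasma membrane. GOLGA7B was at 6.35, 5.06 and 6.42 CPM in si_NC and at 9.30, 9.58 and 9.99 CPM in si_GRB2. The groups did not overlap and GOLGA7B had the largest rise of all members, 1.62-fold, with a log2 fold change of 0.69 (SE 0.11, adjusted p = 0.000109), on a low level of 0.697 FPKM in si_NC and 1.16 in si_GRB2. ZDHHC5 and GOLGA7B thus moved in opposite directions, and their log2 ratio went from 4.45 ± 0.17 to 3.06 ± 0.09 (SD, n = 3 each), a difference of −1.39 (exact permutation p = 0.1). In the other pair, ZDHHC9 was at 83.7, 77.8 and 78.6 CPM in si_NC and at 88.1, 90.7 and 88.4 CPM in si_GRB2, and it rose by a log2 fold change of 0.15 (SE 0.04, adjusted p = 0.00496). GOLGA7 had 0.11 (SE 0.05, adjusted p = 0.0852) with groups that did not overlap, and the log2 ratio of ZDHHC9 to GOLGA7 differed by 0.05 between groups (exact permutation p = 0.6).

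**Figure D3:**
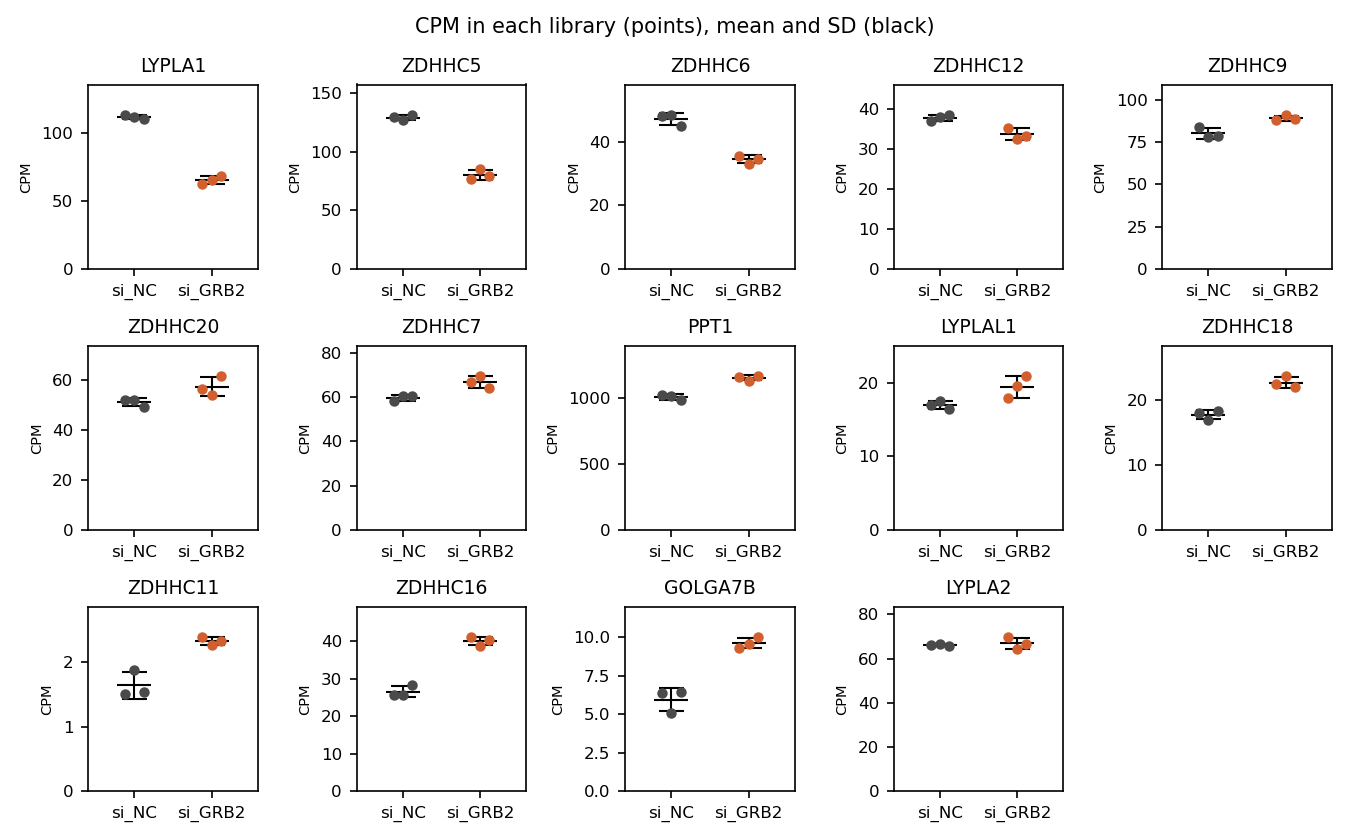
CPM in each library for the 13 palmitoylation genes that passed an adjusted p of 0.05 and for LYPLA2, with points for libraries, black lines for the mean and SD (n = 3), and axes that start at 0. LYPLA1 goes from 112 to 65.5 CPM and ZDHHC5 from 129 to 80.5 CPM with no overlap, whereas LYPLA2 stays at 66.0 and 66.9 CPM.

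The remaining called transferases moved less. ZDHHC18, a Golgi enzyme, was at 17.9, 16.9 and 18.3 CPM in si_NC and at 22.4, 23.6 and 21.8 CPM in si_GRB2, and it rose by a log2 fold change of 0.35 (SE 0.06, adjusted p = 0.000209). ZDHHC7, a Golgi enzyme of broad specificity, was at 58.0, 60.3 and 60.4 CPM in si_NC and at 66.8, 69.3 and 64.1 CPM in si_GRB2 (log2 fold change 0.17, SE 0.04, adjusted p = 0.0051). Treated libraries were above all controls for both genes. ZDHHC20, a transferase known to act on EGFR, was at 52.0, 52.1 and 49.3 CPM in si_NC and at 56.4, 53.8 and 61.4 CPM in si_GRB2 (log2 fold change 0.16, SE 0.05, adjusted p = 0.0176). Its groups were close, and the call was lost without the last si_NC library (adjusted p = 0.0694) and without the last si_GRB2 library (adjusted p = 0.103), and in limma on FPKM. ZDHHC12 was at 36.9, 38.0 and 38.4 CPM in si_NC and at 35.2, 32.4 and 33.1 CPM in si_GRB2, and it fell with a log2 fold change of −0.17 (SE 0.05, adjusted p = 0.0105). That call was lost without the si_GRB2 library numbered 2 (adjusted p = 0.0624) and in limma on FPKM. ZDHHC12 overlaps PKN3 on the opposite strand, whose reads were 13.5% of its own and whose log2 fold change was −0.04 (adjusted p = 0.868).

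ZDHHC11 rested on 314 reads in all. It was at 1.498, 1.88 and 1.53 CPM in si_NC and at 2.38, 2.26 and 2.33 CPM in si_GRB2, with a log2 fold change of 0.51 (SE 0.18, adjusted p = 0.0418). The groups did not overlap, but the call was lost in 9 of 13 alternative fits, among them DESeq2 (adjusted p = 0.144) and 5 of the 6 fits without 1 library, all but the one without the si_NC library numbered 2. Its neighbour BRD9 on the same strand held 1700% as many reads (log2 fold change 0.05, adjusted p = 0.481), and the near copy ZDHHC11B 2.87%, so reads of ZDHHC11 may be split or borrowed.

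The 9 transferases that did not pass were ZDHHC3, ZDHHC4, ZDHHC8, ZDHHC13, ZDHHC14, ZDHHC17, ZDHHC21, ZDHHC23 and ZDHHC24, with log2 fold changes from −0.32 (ZDHHC4) to 0.09 (ZDHHC21). ZDHHC4 had only 127 reads and a standard error of 0.30, so its change could not be resolved. ZDHHC3, the Golgi relative of ZDHHC7, was better measured and had a log2 fold change of 0.04 (SE 0.04, adjusted p = 0.418). On the opposite strand ZDHHC3 overlaps EXOSC7, which had 28.9% as many reads and was lower (−0.24 on the log2 scale, adjusted p = 0.00156), and ZDHHC24 overlaps ENSG00000256349, which had 80.2% as many reads and was higher (0.21 on the log2 scale, adjusted p = 0.0307). ZDHHC23 had −0.10 (adjusted p = 0.105) with groups that did not overlap. ZDHHC8, the close relative of ZDHHC5, had −0.11 (SE 0.13, adjusted p = 0.578) on 792 reads, and its pseudogene ZDHHC8P1 held 229% as many.

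Summed over the family, the deposited FPKM of the transferases differed between groups by less than the spread between libraries, while the makeup of the sum shifted. The FPKM of all ZDHHC genes added up to 96.0 ± 3.85 in si_NC and 97.2 ± 2.99 in si_GRB2 (SD, n = 3 each), ranges that overlap (93.2 to 100.4 and 93.9 to 99.7). ZDHHC5 made up 19.97% ± 0.198 of that sum in si_NC and 12.6% ± 0.638 in si_GRB2. ZDHHC16 went the other way, from 7.32% to 11.3%, and ZDHHC9 went from 12.8% to 14.5% and ZDHHC7 from 12.6% to 14.4%. In si_GRB2 the leading place of ZDHHC5 was therefore taken by ZDHHC9 and ZDHHC7. Among the 6 cytosolic thioesterases the sum was 67.3 ± 1.92 FPKM in si_NC and 63.3 ± 2.06 in si_GRB2, with the share of LYPLA1 going from 28.4% ± 0.268 to 18.3% ± 0.587 and that of LYPLA2 from 39.0% to 43.3%. PPT1 alone was 75.02% and 78.9% of the FPKM of all thioesterases. These shares are descriptions, and no test was run on them. They depend on the gene lengths behind the deposited FPKM, which are not given in the sources used here. The sums use FPKM as deposited, without the TMM factors applied to CPM. Those factors were 0.976 to 0.988 in si_NC and 1.015 to 1.020 in si_GRB2, and their effect on the sums was not tested. The scale of the deposited FPKM also differed between libraries. LYPLA2 stood at 66.1, 66.3 and 65.7 CPM in si_NC but at 25.48, 26.11 and 27.15 FPKM. The spread of the sums includes this scale, so they do not show whether the family total changed.

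**Figure D4:**
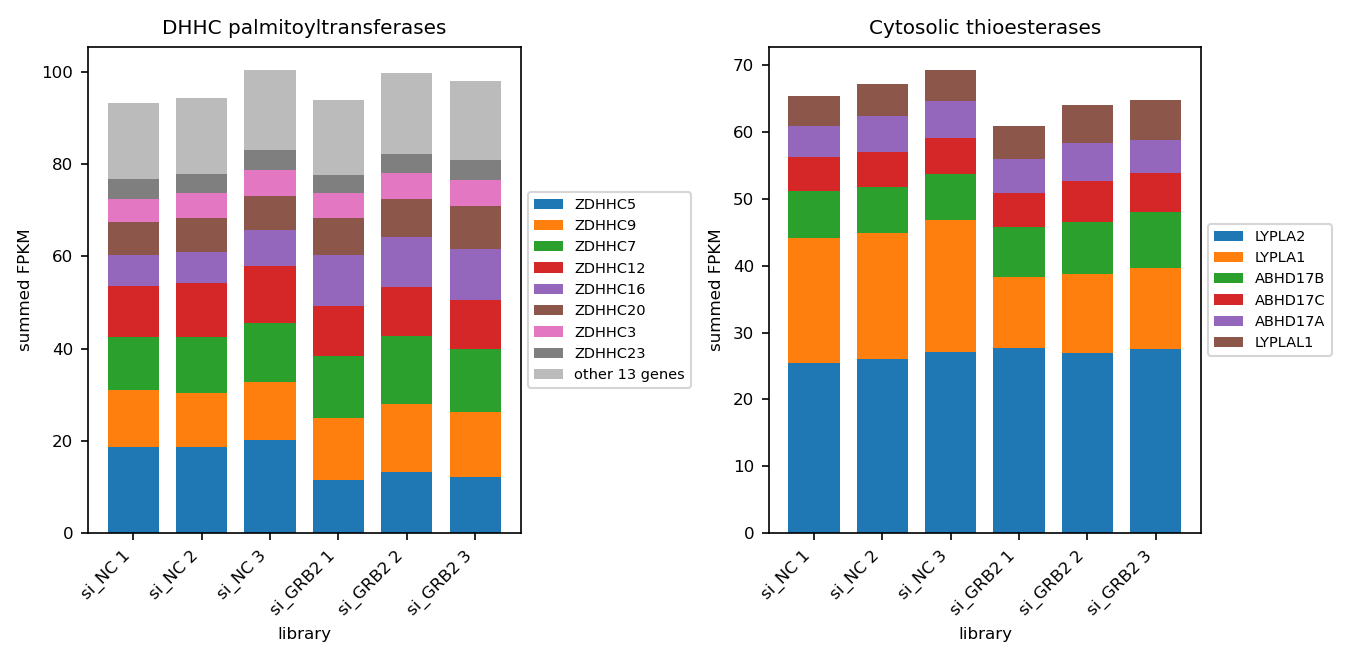
Summed FPKM of the ZDHHC palmitoyltransferases (left) and of the cytosolic thioesterases (right) in each library, stacked by gene from an axis that starts at 0. The transferase stacks reach 93.2 to 100.4 FPKM in every library while the ZDHHC5 layer shrinks from 19.97% to 12.6% of the stack, and the LYPLA1 layer shrinks from 28.4% to 18.3% of its own.

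The 7-base match to the siRNA guide was in the 3′ UTR of 6 of the 29 tested members (20.7%) and of 8.11% of the 12686 tested protein-coding genes with a 3′ UTR. The 6 were LYPLA1, ZDHHC12, ZDHHC3, ZDHHC17 and ZDHHC21 with 1 match each and GOLGA7B with 2. Of these, LYPLA1 and ZDHHC12 fell, GOLGA7B rose and the others did not pass. ZDHHC5 and ZDHHC6, the other members that fell, had no match in the 3′ UTR, and ZDHHC6 had 1 in its coding sequence. Coding matches, 1 each, were also in ZDHHC11 and ZDHHC18, called higher, in ZDHHC23, which did not pass, and in ZDHHC11B, which was not tested. The 6 also had longer 3′ UTRs, with a median of 4294.5 bases against 1349 for the members without a match. Over all tested protein-coding genes with a 3′ UTR, 309 of 1029 with a match were called lower and 131 higher. Without a match, 1964 of 11657 were called lower and 2145 higher. The median 3′ UTR of these genes was also longer with a match, 3411 bases against 1170. A match is a description of letters, and its part in the fall of LYPLA1 or any other member was not tested.

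Genes around the pathway were taken from lists of acyl-CoA supply and use, of other lipid-anchor enzymes and of palmitoylated proteins. From the acyl-CoA list, 10 of 12 genes were tested, of which 2 rose, 5 fell and 3 did not pass, with a median log2 fold change of −0.12. The 5 that fell include ELOVL6 and ACOT7, which do not supply palmitoyl-CoA, so the count is not a measure of that supply. The called share of this list was 70%. It and those of the next lists stand beside 30.6% of all tested genes (15.2% higher, 15.5% lower), whose median was 0.00. The lists hold only protein-coding genes, and that background includes other gene types. The median size of change was 0.16 for this list, 0.08 for other lipid anchors and 0.15 for palmitoylated proteins, against 0.14 for all genes. ACLY, which makes cytosolic acetyl-CoA, averaged 571 CPM in si_NC and 438 CPM in si_GRB2 (log2 fold change −0.38, adjusted p = 1.06e-08), and ELOVL6, which lengthens palmitate, fell from 113 to 89.3 CPM (−0.34, adjusted p = 2.93e-06). Of the enzymes of other lipid anchors 3 of 17 tested were higher and 1 lower (23.5% called), with a median of −0.00. Those with the smallest adjusted p were ICMT, the methyltransferase that caps prenylated proteins (0.18, adjusted p = 0.000162), and CHML, a Rab escort protein (−0.27, adjusted p = 0.00213). Of 35 proteins known to carry palmitate 34 were tested, of which 15 rose, 8 fell and 11 did not pass (67.6% called), with a median of 0.12. The members of that list past 1.5-fold all fell. RAP2B, a RAS-like GTPase, went from 36.5 to 20.1 CPM (−0.86, adjusted p = 3.11e-09), the hyaluronan receptor CD44 from 13.7 to 7.94 CPM (−0.79, adjusted p = 1.12e-06) and the caveolar coat protein CAV1 from 34.1 to 20.9 CPM (−0.71, adjusted p = 2.4e-08).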

How the data were processed

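The data were 3 si_NC and 3 si_GRB2 libraries of poly(A) RNA from SK-BR-3 cells. The authors trimmed reads with FASTX-Toolkit, aligned them to GRCh38 with HISAT2 and, from uniquely mapped reads, deposited the count of reads per gene, not normalized, and FPKM rounded to 2 decimals. The counting tool, its strand setting and the annotation release are not given in the sources used here.

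CPM was computed from the counts with TMM factors in edgeR 4.0.16 under R 4.3.3. After filterByExpr 15801 genes remained, and edgeR's quasi-likelihood test compared the groups with Benjamini-Hochberg adjustment over all genes kept. The step was tested on simulated data. FPKM was used for levels between genes, with the gene lengths of the authors, which are not given in the sources used here. Alternatives were DESeq2 1.42.0, DESeq2 size factors in edgeR, no filter, at least 10 counts in every library, the replicate number as a block, limma 3.58.1 on log2(FPKM + 1) and log2(FPKM + 0.1), and each library left out in turn.

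Gene positions and sequences came from GENCODE 44 on GRCh38, which held all 33 members. Values per library are printed for GRB2, LYPLA1, LYPLA2, LYPLAL1 and members with an adjusted p under 0.05, and from each other list the genes named, by fold change or group means, are those past 1.5-fold with an adjusted p under 0.01, or else the 2 of smallest adjusted p. Members and lists were chosen with earlier results of these data known.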

Additional observations from a re-analysis of the deposited data

How the results depend on the processing

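Over 13 alternative fits LYPLA1 kept its direction and its call, with log2 fold changes from −0.80 to −0.68 (−0.80 to −0.74 with 1 library left out), and so did ZDHHC5, ZDHHC6, ZDHHC16, ZDHHC18, PPT1 and GOLGA7B. On FPKM, limma called 4 members higher in place of 9 with either pseudocount, and 10 (FPKM + 1) or 13 (FPKM + 0.1) genes of the other lipid lists in place of 34, and ZDHHC7 (adjusted p 0.113 and 0.107), ZDHHC9 (0.0636 and 0.0594), ZDHHC20 (0.117 and 0.110), ZDHHC12 (0.223 in both), LYPLAL1 (0.182 and 0.172) and ZDHHC11 (0.125 and 0.260) were lost there, with 3 members lower in place of 4. All genes called were 1400 and 1534 in those fits against 4838, and 3884 in DESeq2. With 1 library left out, 6 to 8 members were higher, 3 to 4 lower, and 29 to 34 list genes were called. LYPLA1 minus LYPLA2 was then −0.82 to −0.73, and it was −0.79 on FPKM. These alternatives for that difference, unlike the difference itself, were chosen after seeing the data. LYPLA2 ran from −0.0102 (without si_GRB2 replicate 1, adjusted p = 0.891) to 0.0457 with 1 library left out. GOLGA7B missed the adjusted p of 0.01 in limma (0.038 and 0.033). The cause of these shifts was not tested.

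Replicate numbers are shared by the groups, but deviations of same-numbered libraries correlated at 0.23, −0.09 and 0.08, so the numbers were not taken as a pairing. With the replicate number as a block LYPLA1 was at −0.77, all 13 called members were shared, and 4807 genes were called in place of 4838. Depth limits ZDHHC1, ZDHHC2, ZDHHC11B and ZDHHC19, which could not be tested, and ZDHHC4 and ZDHHC11.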

Other observations

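Among the palmitoylated proteins HRAS and NRAS were looked at after their values were seen. The log2 fold change was 0.12 for HRAS (adjusted p = 0.055) and 0.14 for NRAS (adjusted p = 0.0219, edgeR's quasi-likelihood test). RAP2B fell, whereas its relatives RAP2A (0.15, adjusted p = 0.0129) and RAP2C (0.40, adjusted p = 5.12e-05) rose. Also picked after their values were seen, TFRC, the transferrin receptor, rose from 371 to 532 CPM (0.52, adjusted p = 1.04e-09), and EGFR fell from 85.8 to 69.8 CPM (−0.30, adjusted p = 4.26e-05).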
